A study of Homo sapiens with 31 samples.

Results

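The comparison was between a pair of control lentiviral vectors in NALM-6 cells, a human B-cell precursor acute lymphoblastic leukemia line, at day 4 after transduction. Both vectors carried sh-CTRL, a control shRNA against eGFP, embedded in a miR30 backbone next to the dsRED reporter, and by the study's methods went into cells already marked with mTagBFP. In EF1a/sh-CTRL (construct 144, n = 3 samples) the cassette was read from the EF1a promoter, and in SFFV/sh-CTRL (construct 146, n = 3 samples) from the SFFV promoter. These 6 of the 31 samples of the series were taken by construct and day, as the labels give them. The remaining 4 samples of day 4 carried an shRNA against XIAP from the same promoters, and another 10 sh-CTRL samples came from days 10 and 13. The labels describe cells kept in vitro, while the series text speaks of cells isolated from murine bone marrow. Nothing states that the replicates of a group came from separate cultures. The p-values thus rest on the spread between these samples as each test models it, and this spread may be technical. Cells of this kind are an established line and stand for 1 leukemia only.

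EF1a is the promoter of the human gene EEF1A1, a translation elongation factor, and is known as a moderate, steady driver of transgenes. SFFV is a promoter from the spleen focus-forming virus and is known as a strong driver in blood cells. A cassette transcribed by RNA polymerase II passes through the microRNA pathway, in which Drosha and Dicer cut out the small RNA and an Argonaute protein loads it. The comparison of the control vectors asks what the choice of promoter does to the cell's own transcripts when no human gene is targeted.

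Few genes were called between the 2 vectors at day 4, which does not show that the profiles were the same. The limma-voom confidence interval of the difference lay wholly within a 2-fold change in 8981 genes (49% of those tested). For the remaining genes a 2-fold difference was not excluded. Of 18336 genes tested with limma-voom, 3 (0.0164%) passed a Benjamini-Hochberg adjusted p of 0.25, the threshold of the study's methods. RPL29 and RPL11, which encode proteins of the large ribosomal subunit, were higher with SFFV, and AL031727.1, a processed pseudogene of the ribosomal protein gene RPS14, was lower. None of the 3 calls was made by edgeR's quasi-likelihood test or by DESeq2, which called 0 genes each. At an unadjusted p under 0.05, limma gave 798 genes (4.35%), edgeR 745 and DESeq2 74. The 798 genes were 422 higher (2.3%) and 376 lower (2.05%) with SFFV. Groups of 3 did not overlap in CPM (a gene's UMI count scaled by the library total) in 1666 genes (9.09%), 917 higher and 749 lower with SFFV. Across all genes tested the log2 difference, SFFV minus EF1a, was above 0 in 9313 and below 0 in 9023, with a median of 0.0064.

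**Figure D1:**
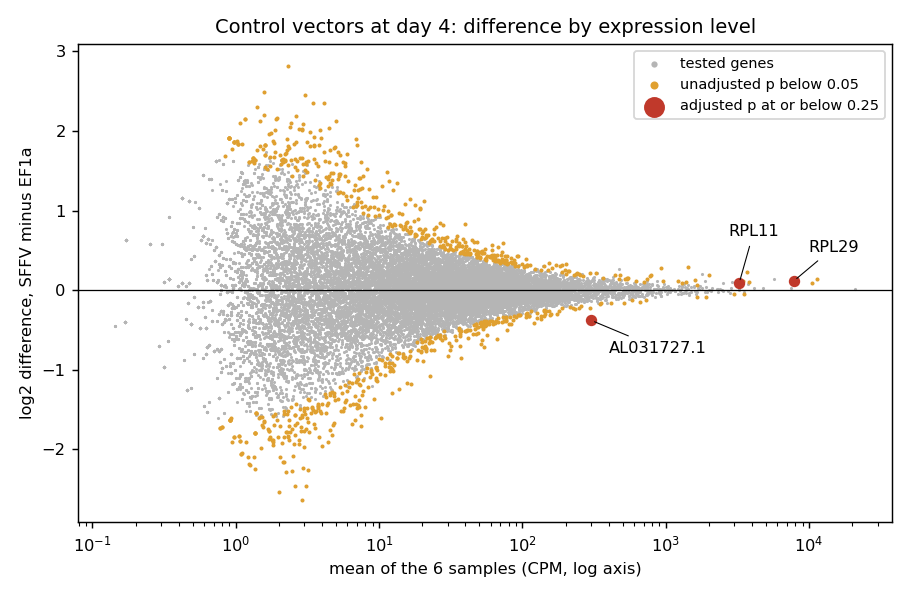
Log2 difference between SFFV/sh-CTRL and EF1a/sh-CTRL at day 4 (vertical axis) against the mean of the 6 samples in CPM (log axis), 1 point per tested gene. The 3 genes called lie within 0.4 of 0 on the log2 scale, and the 798 genes under an unadjusted p of 0.05 form the edges of a band that widens as counts fall.

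The libraries held 372930 to 1153668 UMIs (EF1a/sh-CTRL) and 549881 to 970701 UMIs (SFFV/sh-CTRL), with 15503 to 19394 genes detected. EF1a/sh-CTRL replicate 2 was the shallowest and stood apart. Its 10 most counted genes took 11.3% of its UMIs, against 6.81% to 8.79% in the other 5 samples, and pseudogenes took 20.8%, against 17.2% to 19%. Drawn down to equal depth, pairs of libraries differed by an SD of 0.257 to 0.302 (log2, 1932 genes) within EF1a/sh-CTRL, 0.253 to 0.266 within SFFV/sh-CTRL and 0.248 to 0.283 between the vectors. The medians of these distances were 0.283, 0.258 and 0.264, so the distance between the vectors lay between those within each of them.

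The cells carried B-cell precursor transcripts in both groups. The surrogate light chain gene IGLL1 had a mean of 1367 CPM ± 33.7 (SD, n = 3) with EF1a and 1374 ± 104 with SFFV. EBF1, a B-lineage transcription factor, lay between 273.5 and 318.3 CPM in the 6 samples. Of the markers of other cells found in the table, CD2, CD4, S100A8, S100A9, HBD, ALAS2, CA1, COL1A2, KRT8 and PECAM1 were at 0 in all 6 samples. The summed markers of myeloid cells were at 14.7 CPM with EF1a and 14.9 with SFFV, those of erythroid cells at 3.67 and 2.3, and those of stroma and epithelium at 25.8 and 19.6. The T-cell list summed to 282 and 318 CPM, of which IL7R, the interleukin-7 receptor that B-cell precursors also use, held 273 and 305.

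RPL29 was the call with the smallest p. Its levels in EF1a/sh-CTRL replicates 1, 2 and 3 were 7483, 8353 and 7066 CPM, and in SFFV/sh-CTRL 7504, 8275 and 8337 CPM. The groups overlapped, and the highest single value was an EF1a sample. The limma-voom log2 difference was 0.12 ± 0.021 (SE, adjusted p = 0.0307), while edgeR gave 0.067 (unadjusted p = 0.264, adjusted p = 0.989). The SE was 0.055 in limma-trend and 0.097 in DESeq2, and neither called RPL29. An exact two-sided permutation test of the 3 against 3 CPM values gave p = 0.5, where 0.1 is the smallest p this design allows. Without EF1a/sh-CTRL replicate 3 the difference was 0.026 and without SFFV/sh-CTRL replicate 1 it was 0.24, so single libraries set its size. RPL29 was not called without EF1a/sh-CTRL replicate 3 or without SFFV/sh-CTRL replicate 2 or 3.

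RPL11 had 3169, 3156 and 3211 CPM with EF1a and 3425, 3177 and 3353 CPM with SFFV. SFFV replicate 2 lay within the EF1a range. The log2 difference was 0.087 ± 0.017 (limma-voom, adjusted p = 0.0438), edgeR gave 0.057 (adjusted p = 0.989), and the exact permutation p was 0.2. Without SFFV/sh-CTRL replicate 1 the difference was 0.054, and RPL11 was not called without that library, SFFV/sh-CTRL replicate 3 or EF1a/sh-CTRL replicate 3. RPL11 lies on chromosome 1 (GRCh38, 23691742 to 23696835, plus strand) and RPL29 on chromosome 3 (51993522 to 51995942, minus strand).

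AL031727.1 (ENSG00000226396, chromosome 1, 19608114 to 19608568, plus strand) had 344.8, 332.5 and 349.3 CPM with EF1a and 281.2, 261.9 and 241.7 CPM with SFFV. Every SFFV sample was below every EF1a sample. The log2 difference was -0.38 ± 0.084 (limma-voom, adjusted p = 0.223), the edgeR estimate was the same size (-0.38, unadjusted p = 1.98e-05, adjusted p = 0.363), and the exact permutation p was 0.1. The difference was -0.45 to -0.34 with each library left out in turn, and AL031727.1 was not called without EF1a/sh-CTRL replicate 1 or 3 or SFFV/sh-CTRL replicate 2 or 3. It held 866 UMIs over the EF1a samples and 577 over the SFFV samples, a ratio per total UMIs of 0.766 (95% interval 0.688 to 0.852, which covers counting error only).

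All 3 called genes belong to families of a ribosomal protein gene and its pseudogene copies. Whether reads were shared between a gene and its copies was not tested. The RPL11 copies were 83.9% to 91.7% identical to RPL11 where aligned and are not printed. The stretches printed here show how alike RPS14 and AL031727.1, and RPL29 and AL450405.1, are. Each has 120 bases of the coding sequence (bases 309 to 428 of the RPS14 reading frame and 268 to 387 of that of RPL29), taken from the GRCh38 genome with GENCODE 29 models, with the 5 bases that differ between the gene and its copy in capitals. RPS14 (chr5:150444314-150446804, minus strand, spliced over exons 3 to 5) and AL031727.1 (chr1:19608422-19608541, plus strand) were 95.4% identical over 456 aligned bases:
RPS14: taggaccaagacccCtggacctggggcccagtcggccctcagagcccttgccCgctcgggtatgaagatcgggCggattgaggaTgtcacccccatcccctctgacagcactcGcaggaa
AL031727.1: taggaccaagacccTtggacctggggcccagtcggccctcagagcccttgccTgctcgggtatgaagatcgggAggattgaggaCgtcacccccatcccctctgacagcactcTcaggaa
RPL29 (chr3:51993866-51993985, minus strand, exon 4) and its copy AL450405.1 (chr6:117999218-117999337, plus strand) were 97.3% identical over 480 aligned bases:
RPL29: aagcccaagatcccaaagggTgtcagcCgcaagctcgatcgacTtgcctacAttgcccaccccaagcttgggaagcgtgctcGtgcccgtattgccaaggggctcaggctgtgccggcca
AL450405.1: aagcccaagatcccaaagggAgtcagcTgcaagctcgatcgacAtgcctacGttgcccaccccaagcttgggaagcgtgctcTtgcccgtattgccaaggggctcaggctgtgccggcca

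Summed with its copies, RPL29 lost its call and RPL11 kept it, while AL031727.1 entered the sum of RPS14. RPL29 held 40.3% of the UMIs of its family of 32 genes, and the sum was 18840, 22090 and 17110 CPM with EF1a and 18400, 20810 and 20340 CPM with SFFV (exact p = 0.8). In limma-voom the summed RPL29 counts differed by 0.030 ± 0.038 and were no longer called. RPS14 itself had 2337, 2336 and 2383 CPM with EF1a and 2386, 2321 and 2157 CPM with SFFV, which overlap, while its 10 copies together had 542.1, 501.4 and 521.8 against 462.6, 427.4 and 422.9 CPM, which do not. AL031727.1 is itself the most counted of the 10, and the other 9 had 197.3, 168.9 and 172.5 against 181.3, 165.5 and 181.2 CPM, which overlap. The sum of RPS14 and its copies was lower by 0.056 ± 0.022 on the log2 scale and was not called. RPS14 itself held 82.71% of these UMIs, so the sum cannot show whether AL031727.1 differed. RPL11 held 95.5% of the UMIs of its family of 6 genes, and the sum differed by 0.094 ± 0.016 and stayed called (exact p = 0.2). The counting rule for reads that match several copies is not given in the sources used here, and its part in these values was not tested.

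RPL34, the most counted gene, showed how far these families moved between libraries of 1 group. It encodes another large-subunit protein and had 18400, 29170 and 17660 CPM with EF1a and 17830, 22980 and 20190 CPM with SFFV. With its 26 copies it reached 80360 CPM in EF1a/sh-CTRL replicate 2, against 42320 and 39240 CPM in the other EF1a samples and 40920 to 57070 CPM in the SFFV samples. Its day 4 log2 difference was 0.011 ± 0.019 (limma-voom, adjusted p = 0.996). Without EF1a/sh-CTRL replicate 2, 10 genes were called, among them all 3 of the main calls.

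Genes with the most counts held more low p-values than the rest. Of 97 genes at 1000 CPM or more, 18 (18.6%) had an unadjusted limma p under 0.05, against 4.35% of all genes, and edgeR gave 10. The 18 were 8 ribosomal protein genes, 8 pseudogenes, 1 mitochondrial gene and 1 other gene. In 2 of the 18 the groups did not overlap, beside 9.09% of all genes tested.

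The genes named by the vectors and by the study gave no call. EEF1A1, whose promoter is the EF1a promoter, had 3308, 3169 and 3246 CPM with EF1a and 3273, 3264 and 3279 CPM with SFFV. Its log2 difference was 0.016 ± 0.015 (95% interval -0.015 to 0.047, exact permutation p = 0.7). With its 42 copies the sum was 14720 CPM ± 706 with EF1a and 15330 ± 273 with SFFV (SD, n = 3, exact p = 0.3), although limma-voom called this sum, at a log2 difference of 0.057 ± 0.0052. This SE of 0.0052 was smaller than the spread between these samples.

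XIAP, an inhibitor of caspases and the gene the study silenced with its other shRNA, was near the limit of detection. The EF1a samples held 7, 6 and 12 UMIs and the SFFV samples 7, 4 and 5. That is 25 against 16 UMIs, a ratio per total UMIs of 0.736 (95% interval 0.367 to 1.43), and an exact permutation p of 0.4. A change in XIAP within this interval was not detectable at this depth. BIRC2, which encodes cIAP1, had 74 UMIs in each group and a ratio of 1.15 (0.822 to 1.61). BIRC3, which encodes cIAP2, had 4 UMIs over the EF1a samples and 0 over the SFFV samples and did not pass the filter.

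The depth set what each level could show. Among the 8057 tested genes below 10 CPM the median half-width of the 95% interval was 1.49 on the log2 scale. It was 0.657 for the 4045 genes at 10 to 30 CPM, 0.401 for the 4302 genes at 30 to 100, 0.242 for the 1445 genes at 100 to 300, 0.142 for the 390 genes at 300 to 1000 and 0.0696 for the 97 genes above that. In 8981 genes (49% of those tested) the whole interval lay within a 2-fold change in either direction, and in 4767 (26%) within 1.5-fold. These are limma-voom intervals, which can be too narrow for abundant genes. For RPL29 the SE was 0.021 in limma-voom, 0.055 in limma-trend and 0.097 in DESeq2.

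**Figure D2:**
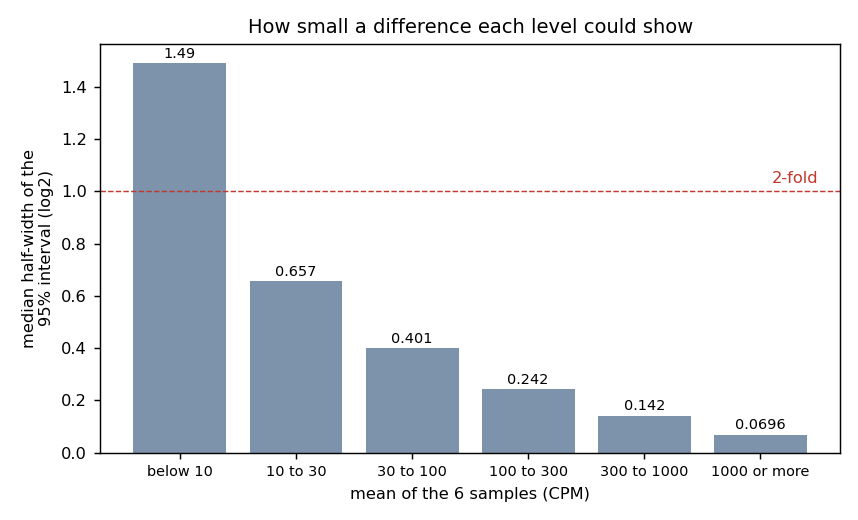
Median half-width of the 95% interval of the log2 difference (vertical axis, starting at 0) for tested genes binned by their mean CPM over the 6 samples, with a dashed line at a 2-fold change. Bins fall from 1.49 below 10 CPM to 0.0696 at 1000 CPM or more.

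The gene lists followed the same picture, with 0 genes called by limma-voom in every list but that of the large ribosomal subunit. List medians are log2 differences, to be read beside the 0.0064 of all genes. The transduction and small RNA genes come first. Among 21 RNA interference genes tested, 10 were higher and 11 lower, 0 had an unadjusted p under 0.05 and the median was -0.015. DDX5, a helicase of the Drosha complex, had a log2 difference of 0.056 ± 0.039, RAN, the GTPase of nuclear export, -0.045 ± 0.055, and DDX17, a further Drosha helicase, 0.029 ± 0.069. The 19 retroviral silencing genes had a median of -0.0018. CBX3, a heterochromatin protein, was at 481.1, 453.2 and 447.3 CPM with EF1a and at 441.9, 441.9 and 436.5 CPM with SFFV, without overlap, at a log2 difference of -0.060 ± 0.066. It was the 1 of the 19 without overlap, beside 9.09% of all genes tested. UHRF1, which keeps DNA methylation through replication, gave 0.12 ± 0.078 and CBX5 0.015 ± 0.092.

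Lentivirus host factors and innate sensing genes were also not called. The 20 host factors had a median of 0.015, with PPIA, the cyclophilin that binds the HIV capsid, at 0.042 ± 0.060, HMGA1 at 0.0019 ± 0.12, and APOBEC3C, a cytidine deaminase, at -0.30 ± 0.12 (unadjusted p = 0.0172). Of 47 interferon-stimulated genes, 18 were higher and 29 lower, with a median of -0.075 and 1 in each direction under an unadjusted p of 0.05. PSMB8, an immunoproteasome subunit, differed by -0.035 ± 0.086, IFITM2 by 0.036 ± 0.12 and TRIM22 by 0.055 ± 0.14. The pair under 0.05, named after their values were seen, were MX2, at 0, 0 and 1.73 CPM against 6.18, 1.82 and 6.04 CPM, and OAS2, at 22.38, 21.45 and 29.47 CPM against 17.51, 18.19 and 9.06 CPM. They pointed in opposite directions, and MX2 held only 13 UMIs over the 6 samples, against 97 for OAS2. The 17 nucleic acid sensing genes had a median of -0.075, with IFI16 at -0.075 ± 0.14, RNASEH2B at 0.065 ± 0.11 and RNASEH2C at -0.25 ± 0.14.

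No stress gene was called. The members with an unadjusted p under 0.05, named after their values were seen, were PSAT1, an enzyme of serine synthesis, at 166.8, 155.5 and 178.6 CPM with EF1a and 210.2, 212.8 and 208.4 CPM with SFFV (log2 difference 0.31 ± 0.10), CANX, or calnexin, at 0.18 ± 0.064, TCP1, a chaperonin subunit, at -0.16 ± 0.077, PPP1R15A, or GADD34, at 1.56 ± 0.60, and BTG2, a p53 target, at 0.40 ± 0.19. The groups did not overlap in PSAT1, CANX and TCP1 and overlapped in PPP1R15A and BTG2. PPP1R15A held only 29 UMIs over the 6 samples. In all, groups did not overlap in 2 of 38 ATF4 and amino acid stress genes, 3 of 25 endoplasmic reticulum chaperones and 3 of 34 heat shock proteins. For p53 targets it was 2 of 28 and for proteasome subunits 3 of 31, beside 9.09% of all genes tested. The 28 p53 targets had a median of -0.046, and CDKN1A, the cell-cycle inhibitor p21, was at 438 CPM ± 34.1 with EF1a and 424 ± 15.3 with SFFV. CCNG1 gave -0.079 ± 0.11 and PMAIP1, which encodes NOXA, 0.15 ± 0.11. The 38 ATF4 and amino acid stress genes had a median of 0.0073, with ATF4 at -0.0099 ± 0.061, MTHFD2 at 0.045 ± 0.074 and ATF5 at -0.049 ± 0.087. The 25 endoplasmic reticulum chaperones had a median of -0.020, with PDIA6 at -0.0088 ± 0.051, CALR at 0.0085 ± 0.059 and HSP90B1 at -0.048 ± 0.064. The 34 heat shock proteins had a median of -0.019, and HSPA8, the constitutive HSP70, was at 1414 CPM ± 48.3 and 1450 ± 53.7. HSP90AA1 gave -0.034 ± 0.035 and HSP90AB1 -0.069 ± 0.045. The 31 proteasome subunits had a median of 0.045, with PSMB1 at 0.032 ± 0.072, PSMB6 at -0.043 ± 0.080 and PSMA4 at 0.12 ± 0.084.

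The cell death genes, the pathway in which the study placed XIAP, gave no call in any list. The 19 BCL2 family genes had a median of 0.10, with 10 higher and 9 lower. MCL1, an anti-apoptotic member, was at 126.1, 193.1 and 136.1 CPM with EF1a and 187.5, 152.8 and 140.5 CPM with SFFV, which overlap. BNIP3L gave 0.15 ± 0.13. The 8 tested IAP family genes and antagonists had a median of -0.084. BIRC5, or survivin, differed by -0.051 ± 0.11, BIRC6 by 0.021 ± 0.16 and HTRA2, a mitochondrial IAP antagonist, by -0.12 ± 0.18. The 20 caspase and apoptosome genes had a median of -0.047, with PARP1, a caspase substrate, at 0.14 ± 0.077, CYCS, cytochrome c, at -0.00050 ± 0.10, and AIFM1 at 0.035 ± 0.17. CASP10, an initiator caspase named after its values were seen, was the member under an unadjusted p of 0.05, at 7.12, 5.36 and 1.73 CPM with EF1a and 9.27, 14.55 and 7.55 CPM with SFFV. The 20 NF-kB targets had a median of 0.13, with 13 higher and 7 lower. TNFAIP3, the feedback inhibitor A20, gave 0.16 ± 0.11, SOD2 -0.032 ± 0.13 and RELA -0.12 ± 0.14.

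**Figure D3:**
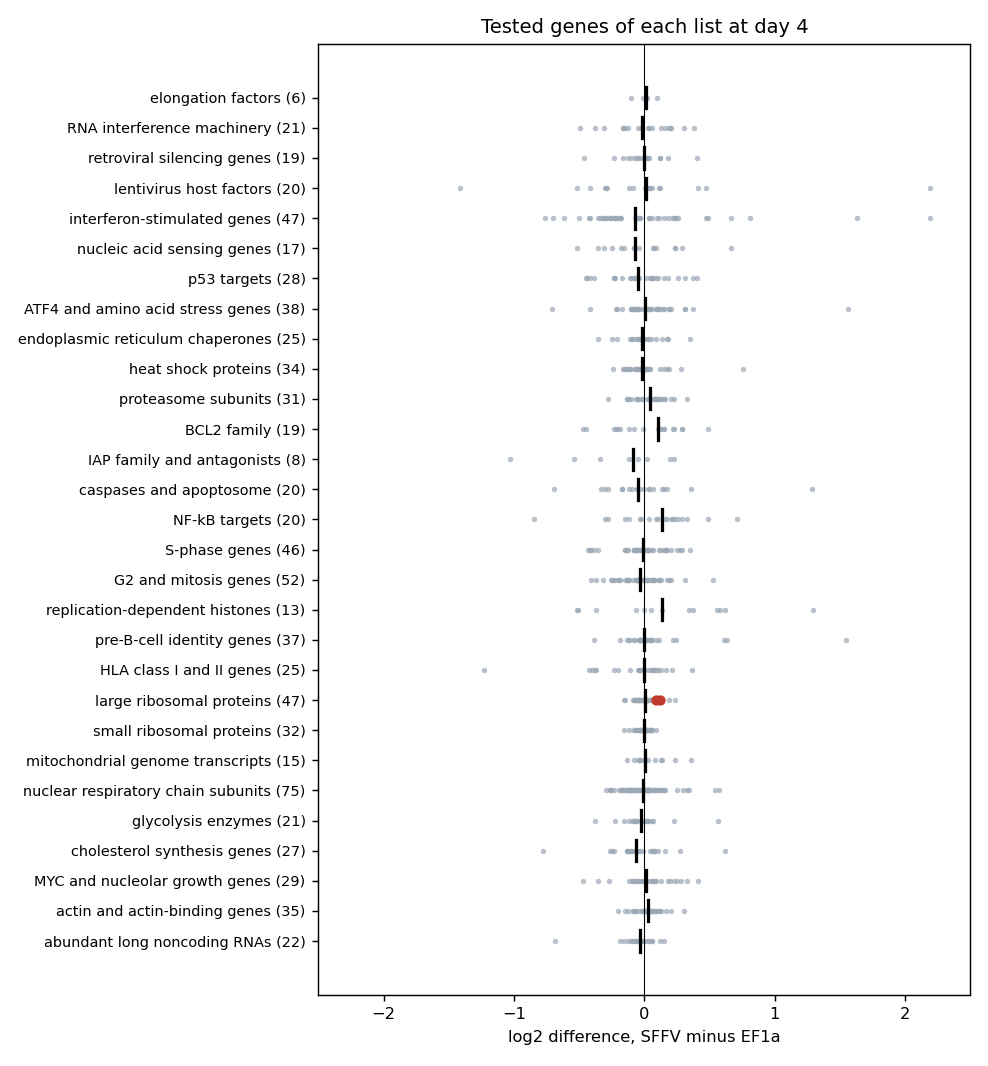
Log2 difference, SFFV minus EF1a, at day 4 for each tested gene of 29 lists (horizontal axis), with the number of genes tested after each name, a black bar at the list median and the called genes in red. RPL29 and RPL11, among the large ribosomal proteins, are the only red points, and the medians lie between -0.084 and 0.13.

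No gene of the proliferation and identity lists was called. The members with an unadjusted p under 0.05, named after their values were seen, were CHAF1A, a histone chaperone subunit, at -0.42 ± 0.13, TK1, thymidine kinase, at -0.41 ± 0.17, BUB1, a spindle checkpoint kinase, at -0.37 ± 0.12, BLK, a B-cell kinase, at 0.61 ± 0.26, and CIITA, the activator of HLA class II genes, at -0.42 ± 0.19. The groups did not overlap in CHAF1A, BUB1 and CIITA. In all, they did not overlap in 5 of the 46 S-phase genes, 4 of the 52 genes of G2 and mitosis, 2 of the 37 pre-B-cell identity genes and 2 of the 25 HLA genes. The share over all genes tested was 9.09%. The S-phase genes had a median of -0.014, with TYMS, thymidylate synthase, at -0.0029 ± 0.060, MCM3, a subunit of the replicative helicase, at -0.083 ± 0.066 and PCNA, the sliding clamp, at 0.023 ± 0.073. The genes of G2 and mitosis had a median of -0.036, with TUBA1B at -0.025 ± 0.036, HMGB2 at -0.056 ± 0.035 and STMN1 at 0.064 ± 0.052. The 13 replication-dependent histone genes had a median of 0.13, with HIST1H4C at -0.00061 ± 0.12, HIST1H2AG at 0.13 ± 0.15 and HIST1H2AC at 0.048 ± 0.55. The pre-B-cell identity genes had a median of -0.0050, with IGLL1 at 0.039 ± 0.038, IGHM, the mu heavy chain, at -0.029 ± 0.041 and DNTT, the terminal transferase, at 0.0094 ± 0.051. The HLA genes had a median of -0.0022. B2M, the class I light chain, was at 1787, 1732 and 1806 CPM with EF1a and at 1820, 1809 and 1823 CPM with SFFV, which do not overlap, at a log2 difference of 0.031 ± 0.027. HLA-DRA gave 0.071 ± 0.053 and HLA-B 0.073 ± 0.054.

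Among the ribosomal protein genes 2 calls were made, both in the large subunit. Of 47 large-subunit genes 26 were higher and 21 lower, 2 were called, and 5 higher and 2 lower had an unadjusted p under 0.05. Their median was 0.0025. An unadjusted limma p under 0.05 was held by 4.35% of all genes tested and by 18.6% of those at 1000 CPM or more. RPL3 differed by 0.022 ± 0.015. The 32 small-subunit genes had a median of -0.00088, with RPS18 at 0.088 ± 0.033 and RPS6 at -0.053 ± 0.015. Both passed an unadjusted limma p of 0.05 with overlapping groups. For RPS18 the sign depended on the method. Its mean was lower with SFFV (10130 against 10830 CPM with EF1a), and edgeR gave -0.11 and DESeq2 -0.12. The 15 mitochondrial transcripts had a median of 0.0062, with MT-CO2 at 0.028 ± 0.030, MT-RNR2 at 0.0062 ± 0.030 and MT-CO3 at -0.030 ± 0.028. The 75 nuclear respiratory chain genes had a median of -0.0081, with 4 higher and 2 lower at an unadjusted p under 0.05. Among them UQCR10, a complex III subunit, was at 535.0, 514.8 and 510.5 CPM with EF1a and 585.1, 581.9 and 557.3 CPM with SFFV, which do not overlap (log2 difference 0.15 ± 0.061). In all, groups did not overlap in 9 of the 75, beside 9.09% of all genes tested. COX4I1 gave 0.027 ± 0.041 and ATP5F1B 0.032 ± 0.062.

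Metabolic, growth and structural lists had medians between -0.066 and 0.028. The 21 glycolysis enzymes had a median of -0.022, and GAPDH was at 2538, 2397 and 2564 CPM with EF1a and 2513, 2461 and 2507 CPM with SFFV. LDHA gave 0.011 ± 0.040 and ENO1 0.057 ± 0.052. The 27 cholesterol synthesis genes had a median of -0.066, with FDPS at -0.074 ± 0.091, HMGCS1 at -0.037 ± 0.085 and SCD at -0.011 ± 0.090. The 29 MYC and nucleolar growth genes had a median of 0.015, with NPM1 at 0.035 ± 0.041, NCL at -0.029 ± 0.045 and NOP56 at -0.095 ± 0.063. The 35 actin and actin-binding genes had a median of 0.028, with ACTG1 at 0.053 ± 0.030, ACTB at 0.028 ± 0.033 and TMSB4X at 0.013 ± 0.040. The 22 abundant long noncoding RNAs had a median of -0.034, with MALAT1 at -0.024 ± 0.033, SNHG29 at -0.062 ± 0.048 and NORAD at 0.037 ± 0.077. The 6 elongation factors had a median of 0.013, with EEF2 at 0.0089 ± 0.021 and EEF1B2 at -0.011 ± 0.056.

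The same contrast was looked up in samples that the day 4 comparison did not use. At days 10 and 13 the sh-CTRL vectors (6 EF1a and 4 SFFV samples) gave 1 call among 17683 genes (0.00566%), RPL34, higher with SFFV by 0.15 ± 0.0053 on the log2 scale. Its CPM values at day 10 were 17720, 18900 and 19250 with EF1a and 20790 and 19110 with SFFV, so the groups overlapped. The SE of 0.0053 is smaller than the spread between these samples. At an unadjusted p under 0.05 limma gave 911 genes, and edgeR called 5. RPL29 was also higher there, by 0.16 ± 0.071 (unadjusted p = 0.0283, adjusted p = 0.923). RPL11 differed by -0.028 ± 0.030 and AL031727.1 by -0.15 ± 0.088, neither called. A test of the change of the promoter effect between day 4 and days 10 and 13 called 0 of 17676 genes (0%) in limma and 0 in edgeR, with 831 at an unadjusted limma p under 0.05.

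With sh-XIAP at day 4, where promoter and strength of the XIAP KD cannot be told apart, SFFV against EF1a (2 samples each) gave 0 calls of 18336 genes (0%) in limma, with 868 at an unadjusted p under 0.05. RPL29 differed by 0.087 ± 0.029 (unadjusted p = 0.00461), RPL11 by -0.023 ± 0.023 and AL031727.1 by 0.11 ± 0.10. The RPL29 estimate was thus above 0 in all 3 limma-voom contrasts, and AL031727.1 turned its sign in the sh-XIAP samples. The RPL29 groups still overlapped with sh-XIAP (7706 to 8239 CPM with EF1a, 8154 to 8675 with SFFV). With sh-CTRL they overlapped at day 4 and at day 13 (8530 to 9253 against 8807 to 9115 CPM). At day 10 they did not (7490 to 8079 against 8573 to 8633 CPM).

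**Figure D4:**
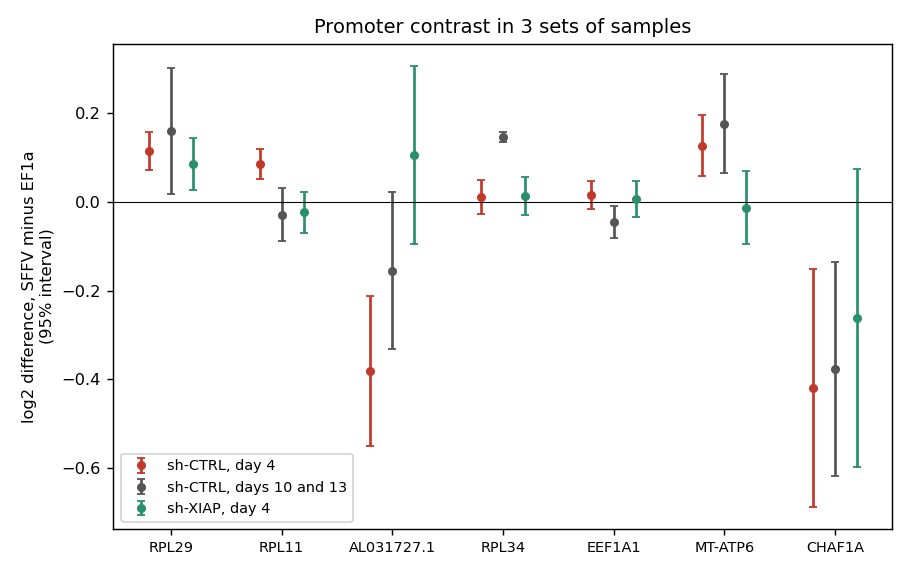
Log2 difference, SFFV minus EF1a, with its limma-voom 95% interval for 7 genes in sh-CTRL at day 4 (red), sh-CTRL at days 10 and 13 (grey) and sh-XIAP at day 4 (green). RPL29 is above 0 in all 3 sets and CHAF1A below 0 in all 3, while AL031727.1 changes side. MT-ATP6 and CHAF1A were added after their values were seen.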

How the data were processed

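RNA of 31 samples was sequenced with a bulk 3′ protocol with unique molecular identifiers (UMIs). The authors deposited 1 table of raw UMI counts per gene (30667 genes), without normalization. Their processing notes, per the labels, list STAR 2.6.0a and human and mouse genome builds. The counting tool is not given in the sources used here, nor is the annotation release. Symbols and coordinates came from GENCODE 29 on GRCh38 (29928 identifiers matched).

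Samples were grouped by the construct and day in the labels. After the study's methods, genes over 1 CPM in at least 1/3 of the fitted samples were tested with TMM factors (edgeR 4.0.16) and limma-voom (limma 3.58.1, R 4.3.3) over the 10 samples of day 4, with 1 coefficient per construct. Days 10 and 13 had construct and day as terms. Adjusted p-values are Benjamini-Hochberg over all tested genes and calls were made at 0.25. Single genes were also compared with an exact two-sided permutation test. DESeq2 1.42.0, edgeR, other scalings, filters, sample sets, a covariate for depth, libraries thinned without replacement to 372930 UMIs, a replicate block and leaving out each sample were alternatives. Copies of a gene were found with BLAST 2.17.0 (at least 80% identity over 150 bases). Scripts were tested on simulated data.

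Named genes are XIAP, BIRC2, BIRC3, EEF1A1, every called gene, and the 3 most counted members of each of the gene lists. Members and lists were chosen with earlier results of these data known. Some items that this rule names are not reported here.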

Additional observations from a re-analysis of the deposited data

How the results depend on the processing

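The count of genes called at day 4, 3 in the fit reported, depended on the setting. It was 0 with edgeR, with DESeq2, with limma-trend, with filterByExpr and with libraries thinned to equal depth, 1 without TMM factors, with DESeq2 size factors and with promoter and shRNA as additive terms, 12 without a filter on low counts and 17 with log2 total UMIs as a covariate. With all 31 samples it was 2, of which 1 was among the 3. Leaving out 1 library gave 0 to 10. It was 9 without EF1a/sh-CTRL replicate 1, 10 without replicate 2 and 0 without replicate 3, and 6, 1 and 1 without SFFV/sh-CTRL replicates 1, 2 and 3. At days 10 and 13, edgeR called 5 genes in place of 1. The cause of these differences was not tested.

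RPL29, RPL11 and AL031727.1 kept their direction in all 15 settings tried for each, leave-one-out aside, but lost the call in 9, 8 and 10 of them. The 15 of AL031727.1 include the sum of RPS14 with its copies, in which RPS14 itself held 82.71% of the UMIs. Adjusted p ranged from 0.00115 to 1 for RPL29 and from 0.0344 to 1 for AL031727.1. For RPL11 the lowest was 4.05e-14, in limma-voom without a filter on low counts, while edgeR gave 0.989. BIRC2, not called, turned to -0.10 with additive terms. EEF1A1, not called, ranged from -0.018 to 0.042 with 1 library left out, and turned to -0.018 without EF1a/sh-CTRL replicate 3 and to -0.00086 without SFFV/sh-CTRL replicate 2. Summing copies with the gene was chosen after seeing the data.

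The labels share replicate numbers across groups. Over all tested genes the deviations of same-numbered samples hardly correlated (0.00168, 0.00808 and 0.00641 between the vectors). Many of these genes held few counts, so the correlations cannot tell whether same-numbered samples shared a batch. Replicate 2 was the shallowest library of both groups (372930 UMIs with EF1a and 549881 with SFFV). It also had the highest pseudogene share of both (20.8% and 19%). With a replicate block the count at day 4 was 3, the same 3 genes, and at days 10 and 13 it was 0.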

Other observations

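The genes at the low end of the p-values were looked up in the samples of days 10 and 13, which share no library with day 4. Of 778 genes with an unadjusted p under 0.05 at day 4 that were also tested there, 24 (3.08%) had an unadjusted p under 0.05 with the same sign and 20 (2.57%) with the opposite sign, and 50.8% had the same sign. Of all 17159 genes tested in both, 892 (5.2%) had an unadjusted limma p under 0.05 at days 10 and 13, in either direction. In the sh-XIAP samples of day 4 the counts with the same and the opposite sign were 23 and 24 of 798 genes. There 868 of all 18336 genes (4.73%) were under 0.05 in either direction. Among the 24 with the same sign at days 10 and 13 was CHAF1A, a subunit of the histone chaperone CAF-1, named after its values were seen. It had 132.2, 166.3 and 124.8 CPM with EF1a and 103, 105.5 and 89.11 CPM with SFFV at day 4 (log2 difference -0.42 ± 0.13, limma-voom adjusted p = 0.996). At day 10 it had 131.7, 135.4 and 126.9 against 92.3 and 101.9 CPM, and at day 13 120.9, 134.8 and 130.2 against 88.3 and 109.3 CPM. Every SFFV/sh-CTRL sample of the 3 days was below every EF1a/sh-CTRL sample. CHAF1A was picked by its values in these same samples, so this separation is no independent support. The share of all genes that separate this way was not counted. With sh-XIAP, SFFV was lower at day 4 (101.6 and 96.62 against 116 and 118.4 CPM), but the groups overlapped at day 10, where the SFFV mean was the higher (116.5 against 107.4 CPM), and at day 13 (111.8 to 134.7 against 117.7 to 147.2 CPM). CHAF1A passed no adjusted threshold at day 4 or at days 10 and 13 (adjusted p = 0.923). MT-ATP6, a mitochondrially encoded subunit of ATP synthase, was also among the 24, with a log2 difference of 0.13 ± 0.034 at day 4 and 0.18 ± 0.055 at days 10 and 13. Its groups overlapped at day 4 (1457 to 1673 CPM with EF1a, 1595 to 1715 with SFFV, limma-voom adjusted p = 0.996), edgeR gave 0.088 there, and the sh-XIAP samples of day 4 gave -0.013 ± 0.041.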
